A study of Mus musculus with 48 samples.

Results

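The cytosolic ribosomal protein genes were followed in the nascent RNA of mouse embryonic stem cells as they left mitosis. Members were the symbols that spell a ribosomal protein of the large subunit (Rpl, with the stalk genes Rplp0, Rplp1 and Rplp2) or of the small subunit (Rps, with Rpsa) and that held at least 480 counts over all 48 libraries. Of 89 symbols that matched, 77 were kept, out of 55291 features in the tables, 44 of them of the large and 33 of the small subunit. Just inside the minimum lay Rps10 with 726 and Rps27l with 780 counts, and just outside it Rpl10l with 448, Rpl39 with 369 and Rpl13a with 257. Of the 12 symbols below the minimum 5 held no count, Rpl13 among them.

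The cells, of strain 129S5/SvEvBrd, expressed SMARCE1 joined to a mitotic degradation domain (Smarce1-MD, shortened to MD) or to that domain with the R42A substitution, which is known to keep it from being degraded (Smarce1-MD(R42A), shortened to R42A and taken as the control). SMARCE1 belongs to SWI/SNF (BAF), which remodels chromatin. The MD clones are MD09 and MD30, and the R42A clones A04 and A10. Both genotypes were sampled in asynchronous culture (asyn in the labels), and as mitotic cells shaken off after 6 h in nocodazole at 100 ng/ml, a microtubule poison, at washout (0 min) and 45, 90, 180 and 240 min later. New transcripts were captured after labelling with a modified uridine. Each of the 12 groups held 4 libraries, 2 from each of 2 clones, so a genotype stands for 2 clones and nothing about a genotype can be told apart from what its clones share.

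Each ribosome holds a single copy of nearly every ribosomal protein, and growing cells transcribe these genes at high rates. Most are short genes that start in a run of pyrimidines, which becomes the 5′ TOP sequence of the messenger RNA, and many carry small nucleolar RNAs in their introns. RNA polymerase II activity is low in mitosis and returns as cells leave it.

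Levels are CPM (counts scaled to the total on features), as mean ± SD over n = 2 clones unless libraries are named. Differences are log2 fold changes ± standard error from edgeR's quasi-likelihood test on counts summed per clone and condition, after TMM scaling. A gene was called at a Benjamini-Hochberg adjusted p under 0.05 over all 23874 features tested, which included all 77 members. A log2 fold can differ from the ratio of the CPM values because of the TMM scaling, so the median of the members is also given relative to that of all features. Separate cultures are not stated for the libraries of a clone. The p-values of genotype comparisons measure the spread between clones alone. Those of time comparisons and interactions, fitted with a clone term, measure how clones differ in their changes over time. In such bulk samples fewer cells of a type and less RNA per cell cannot be told apart.

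Libraries held 630119 to 3885219 counts on features, and 1729 to 8757 of these fell on members. Totals at 0 min were low, at 762327 to 896670 in R42A and 815733 to 1022255 in MD. In MD at 90 min they were 1518400 and 1316881 in MD09, and 630119 and 635760, the lowest of all, in MD30. In those 4 MD libraries mitochondrially encoded features took 0.529 to 4.31% of counts and the feature CT010467.2 0.0949 to 11.3%, with the higher values in both MD09 libraries, and in R42A at 90 min these shares were 0.183 to 0.217% and 0.0204 to 0.0242%. Of 8 stem cell markers 7 had counts, with sums of 383 to 1390 CPM, lowest in MD at 90 min, and Sox2 was listed at 0. Markers of fibroblasts summed to at most 42.1 CPM, of endoderm to 30.0 CPM and of neural cells to 66.5 CPM. Smarce1 RNA, which does not report on protein degradation, stood in asynchronous cells at 32.3 ± 2.75 CPM in the R42A clones and 24.1 ± 2.34 CPM in the MD clones.

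The promoters below are shown for the 3 members with the largest log2 difference of MD over R42A at 90 min (Rpl38, Rpl27a, Rpl26), the pair with a late peak (Rps28, Rpl31) and 1 member lower in MD (Rpl7l1). The stretches come from RefSeq promoter windows (GRCm38.p6) and run 5′ to 3′ on the gene's strand from 60 bases before the start site to 20 bases after it. Capitals mark the pyrimidine stretch CTTTCC, the ETS factor core CCGGAAG and the palindrome-like TCGCGAGA on either strand, where the last was chosen after the sequences were seen and overlaps with its own reverse complement.
Rpl38: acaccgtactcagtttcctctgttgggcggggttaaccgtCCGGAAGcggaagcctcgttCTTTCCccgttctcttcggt
Rpl27a: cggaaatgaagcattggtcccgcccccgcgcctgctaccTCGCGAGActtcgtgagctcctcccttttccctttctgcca
Rpl26: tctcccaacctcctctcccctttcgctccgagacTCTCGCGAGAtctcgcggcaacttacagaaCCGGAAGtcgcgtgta
Rps28: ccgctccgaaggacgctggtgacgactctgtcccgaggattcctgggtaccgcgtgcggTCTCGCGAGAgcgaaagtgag
Rpl31: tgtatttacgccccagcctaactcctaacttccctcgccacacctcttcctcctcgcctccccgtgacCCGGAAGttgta
Rpl7l1: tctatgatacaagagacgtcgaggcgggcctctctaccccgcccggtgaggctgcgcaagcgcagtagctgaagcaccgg

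These stretches are chr11:114668520-114668599, chr7:109519135-109519214, chr11:68901506-68901585 and chr1:39367791-39367870 on the plus strand, and chr17:33824543-33824622 and chr17:46782637-46782716 on the minus strand. RefSeq windows of 300 bases (250 before the start, 50 after it) were held for 56 members, and each motif was searched on both strands. CCGGAAG was in the windows of 24 members (42.9%) and of 9.93% of all 27025 symbols. TCGCGAGA was in those of 11 members (19.6%) against 1.13% of all, CTTTCC in 29 (51.8%) against 29.3%, and AAGATGG, the YY1 core, in 9 (16.1%) against 7.28%. TATAAA was in 5 (8.93%) against 15.7%, and CACGTG, the E-box, in 5 (8.93%) against 8.09%. A match is a run of letters and not a measured binding site.

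In asynchronous R42A cells the median member was at 22.8 CPM, with quartiles of 13.6 and 34.2 CPM. Rps28 (227 ± 1.54 CPM) and Rps14 (235 ± 14.2 CPM), both of the small subunit, together took 23.8% of all member counts in the series. Levels were put on a common scale by dividing by the merged exon length, whose median was 1770 bases. On that scale the median member was at 11.7 CPM per kb. Rpl36 had the highest level (141 ± 0.478 CPM per kb), followed by Rps28 (132 ± 0.894), Rps14 (98.3 ± 5.93) and Rps15 (67.6 ± 3.11), which lay apart by more than their SD. The next 3 were Rpl8 (46.7 ± 1.72), Rpl4 (45.2 ± 0.552) and Rpl32 (45.1 ± 0.717), which lay within an SD of each other. At the low end were Rps10 (1.87 ± 0.0362) and Rps15a (1.63 ± 0.011).

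Some of these levels can hold reads of other genes. By the GENCODE M21 annotation on mm10, 27 members hold a small nucleolar RNA on their own strand, 18 share exon bases with a gene on the other strand, and 58 have at least 1 pseudogene named after them (291 in all). No source used here gives the strand setting of the counting, so a member and a gene on its other strand cannot be told apart where they overlap, and reads shared with near-identical copies are uncertain. All members but Rps4l, a transcribed processed pseudogene, are annotated as protein coding. The members lie on 19 chromosomes, 7 of them on chromosome 11.

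The time course followed these genes through mitotic exit. In R42A the share of all counts on members was highest at washout: it was 0.207 to 0.285% in the 4 asynchronous libraries, 0.394 to 0.509% at 0 min, 0.239 to 0.316% at 45 min, 0.179 to 0.222% at 90 min, 0.192 to 0.259% at 180 min and 0.298 to 0.34% at 240 min. All R42A libraries at 0 min lay above all other R42A libraries, and those at 90 min lay below all at 45 and 240 min. In MD the share was 0.261 to 0.305% in asynchronous cells, 0.345 to 0.419% at 0 min, 0.278 to 0.35% at 45 min, 0.219 to 0.315% at 90 min, 0.268 to 0.307% at 180 min and 0.293 to 0.329% at 240 min. The MD ranges at 0 and 45 min overlapped slightly, and those from 45 to 240 min overlapped widely. By mean CPM, 66 members were highest at 0 min in R42A and 60 in MD, and most were lowest at 90 min (44 and 36) or 180 min (27 and 31).

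**Figure D1:**
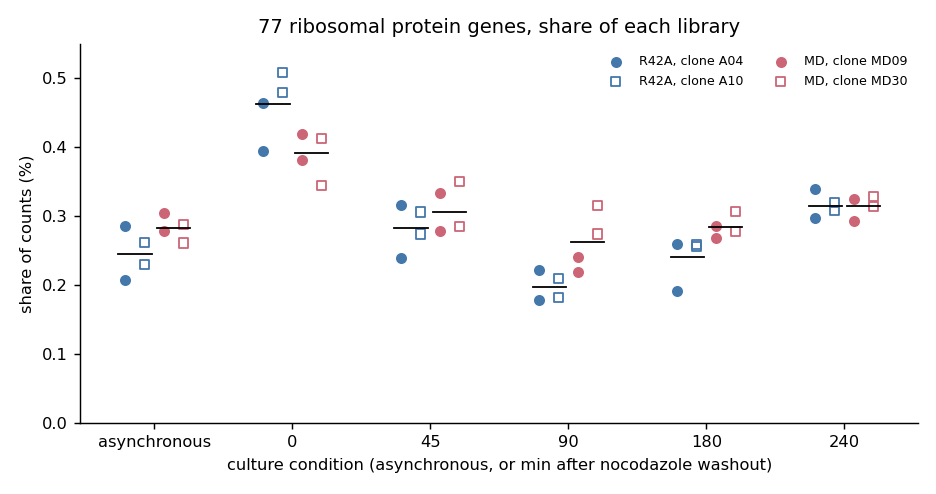
Share of counts on the 77 members (%) in each of the 48 libraries against culture condition (asynchronous, or min after washout), with colour for genotype, symbol for clone and lines for the mean of 2 clones. The R42A libraries at 0 min, at 0.394 to 0.509%, lie above all other R42A libraries, and those at 90 min lie at 0.179 to 0.222%.

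From asynchronous culture to washout, 52 members rose and 1 fell in R42A, where 19.1% of all features were called higher and 27.2% lower. These changes are relative to the other features of a library, and totals were lower at 0 min. The raw counts on members were 4435 to 5746 per asynchronous R42A library and 3007 to 4198 at 0 min. In MD they were 5299 to 5828 and 2816 to 4281. Whether the absolute output of these genes changed was not tested. Of the large subunit 26 of 44 rose and of the small subunit 26 of 33. The median member changed by 0.67 and the median of all features by -0.07. Rpl14, of the large subunit, held 20.4, 36.8, 26.5 and 22.3 CPM in the 4 asynchronous R42A libraries and 48.5, 75.8, 86 and 72.2 CPM in those at 0 min, with no overlap (1.04 ± 0.18, adjusted p = 8.04e-06). Large rises were also seen for Rps27l, a p53-responsive paralog of Rps27 (1.29 ± 0.33, adjusted p = 0.00139), Rpl10, whose protein joins the large subunit late in assembly (1.18 ± 0.25, adjusted p = 0.000137), and Rpl37a (1.07 ± 0.21, adjusted p = 3.6e-05). Rps4l (1.06 ± 0.17, adjusted p = 1.82e-06) followed. Rpl18 was called lower (-0.37 ± 0.16, adjusted p = 0.048), at 104 ± 3.17 CPM in asynchronous cells and 105 ± 4.29 CPM at 0 min, and its fold was 0.03 with library totals in place of TMM. Without clone A10, 27 members rose.

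In MD the same step gave 11 members higher and 2 lower, against 18% and 24.6% of all features, with a member median of 0.19 and a median of all features of -0.09. Rps27l rose most (1.57 ± 0.39, adjusted p = 0.000945). Rpl3l, a paralog of Rpl3 known from muscle (1.05 ± 0.26, adjusted p = 0.00118), also rose, as did Rpl10 (0.74 ± 0.26), Rpl23 (0.61 ± 0.17) and Rps24 (0.57 ± 0.16), with adjusted p of 0.00317 to 0.0183. Rpl18 (-0.77 ± 0.16, adjusted p = 8.36e-05) and Rps14 (-0.41 ± 0.15, adjusted p = 0.0197) fell. Library totals gave 38 members higher, and the count was 3 without MD09, 6 without MD30 and 26 without A04. Whether this step differed between the genotypes was not tested. Mitochondrially encoded features moved with the members at washout, with shares of 0.55 to 0.634% in R42A and 0.426 to 0.657% in MD at 0 min. Without these features and CT010467.2 the counts of members that rose were 52 in R42A and 11 in MD. Leaving out such small shares can hardly alter the scaling, so these counts could not show a link, and none was tested.

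By 45 min most members had come down again. In R42A 58 fell and 4 rose, against 21.6% and 25% of all features, with a member median of -0.90 and a median of all features of 0.03. Rpl26, whose protein is also known to bind p53 mRNA, went from 87.9, 83.6, 96.9 and 83.8 CPM in the 4 libraries at 0 min to 36, 28.4, 36 and 35.4 CPM at 45 min, with no overlap (-1.33 ± 0.18, adjusted p = 4.91e-08). Rpl14 (-1.35 ± 0.18), Rps4x, the X-linked form of eS4 (-1.32 ± 0.27), Rps13 (-1.23 ± 0.24) and Rpl38 (-1.23 ± 0.18) also fell far, with adjusted p of 4.43e-08 to 8.16e-05. Besides Rps10 and Rpl7l1, described below, Rpl15 (0.62 ± 0.26, adjusted p = 0.0454) and Rps14 (0.43 ± 0.15, adjusted p = 0.0136) rose. The count that rose was 1 without A04 and 2 without A10.

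In MD 48 members fell and 4 rose over this step, against 17.1% and 23.1% of all features, with a member median of -0.59 and a median of all features of 0.10. Rplp1, which encodes an acidic protein of the stalk, fell most (-1.32 ± 0.23, adjusted p = 1.4e-05). Rpl21 (-1.05 ± 0.18), Rpl4 (-0.99 ± 0.15) and Rpl26 (-0.99 ± 0.17) also fell, with adjusted p of 1.13e-06 to 1.34e-05. Without MD09, 12 members fell.

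From 45 to 90 min the change differed between the genotypes for some members, by the interaction test given below. In R42A 36 members fell and 0 rose, against 20.2% and 20.5% of all features, and DESeq2 called 0 higher. By edgeR 1 rose and 44 fell at an unadjusted p under 0.05, where 47.5% of all features passed in either direction. Rps10 (-2.43 ± 0.26), Rps27l (-1.34 ± 0.29), Rpl3l (-1.19 ± 0.22) and Rpl15 (-1.19 ± 0.22) were among those that fell far, with adjusted p of 1.78e-10 to 0.000166. Without A10, 16 members fell.

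In MD 17 members rose and 9 fell over the same step, against 20.1% and 25.2% of all features. Rpl27a rose most (1.36 ± 0.17, adjusted p = 1.09e-08). Rpl4, of the large subunit (1.10 ± 0.15, adjusted p = 9.4e-08), rose as well, and so did Rpl36 (1.06 ± 0.17), Rps7 (1.06 ± 0.23) and Rpl26 (0.97 ± 0.18), with adjusted p of 2.08e-06 to 0.000172. Rps10 (-2.53 ± 0.34), Rpl3l (-1.92 ± 0.28), Rpl7l1 (-1.41 ± 0.25), Rps15a (-1.12 ± 0.33), Rpl15 (-0.94 ± 0.32) and Rps14 (-0.79 ± 0.15) fell most, with adjusted p of 4.11e-08 to 0.0138. The MD median of 0.16 became -0.23 with library totals, which gave 8 members higher and 20 lower, while its distance from the median of all features was 0.28 with TMM and 0.28 with library totals. The count that rose was 10 without MD09 replicate 1 at 90 min and 5 without MD09, and the count that fell 5 without MD30.

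The difference between the genotypes in this step was tested as an interaction. In MD the change was more positive for 26 members and more negative for 0, against 6.38% and 13.1% of all features. At an unadjusted p under 0.05 the counts were 39 and 4, where 32.4% of all features passed in either direction. The member median was 0.60 and that of all features -0.20. Rpl27a (1.51 ± 0.24, adjusted p = 2.46e-05), Rpl36 (1.47 ± 0.24, adjusted p = 2.75e-05), Rps26 (1.40 ± 0.22, adjusted p = 2.6e-05) and Rps3a1 (1.34 ± 0.33, adjusted p = 0.00384) were among those that differed most. With library totals the counts were 13 more positive and 4 more negative. The first count was 5 without MD09, 13 without A10, 43 without A04 replicate 2 at 45 min and 40 without MD09 replicate 2 at 90 min. Rpl27a, Rpl36, Rpl38 and Rps26 kept their call in all alternatives run.

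Compared directly at 90 min, 35 members were higher in MD than in R42A and 2 lower, against 15.6% and 22.1% of all features. They were 19 of 44 members of the large and 16 of 33 of the small subunit. The member median was 0.49, where all features had -0.13, and 64 of 77 members lay above 0. The share of counts on members was 0.219 to 0.315% in MD and 0.179 to 0.222% in R42A, so that the lowest MD library overlapped with the highest of R42A.

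Rpl38, known in the mouse for its part in the translation of Hox mRNAs (chr11:114668524-114672331), differed most. At 90 min the MD libraries held 45.4, 38.7, 69.8 and 50.3 CPM and the R42A libraries 21.1, 13.7, 18.8 and 10.2 CPM. All 4 MD libraries were above all of R42A (1.72 ± 0.18, adjusted p = 9.36e-09). Rpl27a (chr7:109519147-109522367) had 33.6, 69.9, 58.7 and 73.9 CPM in MD and 21.5, 18.1, 23.5 and 15.4 CPM in R42A, again apart, with 1 MD09 library below the others (1.62 ± 0.17, adjusted p = 9.36e-09). Rpl26 (chr11:68901583-68906989) had 82.3, 47.8, 79.4 and 58.2 CPM in MD and 32.8, 21.3, 25.6 and 19 CPM in R42A, with no overlap (1.56 ± 0.19, adjusted p = 7.07e-08). Both encode large-subunit proteins. For Rps26, of the small subunit (chr10:128624534-128626747), the MD libraries held 47.4, 70.6, 71.4 and 81.8 CPM and the R42A libraries 34.7, 26.4, 33.6 and 24.5 CPM (1.23 ± 0.16, adjusted p = 3.38e-07), again with no overlap.

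Members of other parts of both subunits were also higher in MD than in R42A at 90 min. Of the large subunit, Rpl19, which takes part in a bridge between the subunits (1.40 ± 0.20, adjusted p = 1.72e-06), Rpl36 (1.25 ± 0.18, adjusted p = 1.28e-06), Rpl23a, which binds the signal recognition particle at the exit tunnel (1.09 ± 0.20, adjusted p = 5.34e-05), and Rpl4 (1.05 ± 0.15, adjusted p = 1.95e-06) were higher in MD. Of the small subunit, Rps7, whose protein also binds MDM2 (1.24 ± 0.24, adjusted p = 0.000116), and Rps3a1 (0.99 ± 0.25, adjusted p = 0.00195) were higher. Rps26 and Rps7 are genes mutated in Diamond-Blackfan anaemia in humans. The shortest protein's gene, Rpl41, was higher as well (0.74 ± 0.19, adjusted p = 0.00246).

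Some members were not called at 90 min, though their log2 folds lay above 0. The stalk genes did not pass the threshold at 90 min: Rplp0 differed by 0.25 ± 0.24, adjusted p = 0.431, Rplp1 by 0.66 ± 0.28, adjusted p = 0.0578 and Rplp2 by 0.45 ± 0.23, adjusted p = 0.119. Rplp0, which anchors the stalk, held 13.8, 10.6, 20.6 and 26.7 CPM in MD and 16.2, 13.7, 17.8 and 11.3 CPM in R42A, with overlapping ranges. Rpsa, which encodes the laminin receptor precursor (0.13 ± 0.25, adjusted p = 0.715), and Rps27a, which encodes a ubiquitin fusion (0.23 ± 0.24, adjusted p = 0.479), did not pass either.

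Some paralogs differed in their calls. Rpl7l1, a nucleolar paralog of Rpl7 (chr17:46773907-46782672), was lower in MD: the MD libraries held 5.27, 9.87, 4.76 and 15.7 CPM and those of R42A 14.7, 20.3, 19.2 and 15.7 CPM, with 1 MD library inside the R42A range (-0.95 ± 0.26, adjusted p = 0.00351). Rpl7 itself differed by 0.12 ± 0.28, adjusted p = 0.766. Rps27 was higher (0.85 ± 0.21, adjusted p = 0.00203). Rps27l had a similar log2 fold with a larger standard error and did not pass (0.80 ± 0.39, adjusted p = 0.109). Rpl22, whose paralog Rpl22l1 fell below the count minimum with 141 counts, differed by 0.43 ± 0.22, Rpl3l by -0.23 ± 0.34 and Rps4l by 0.24 ± 0.21, with adjusted p of 0.121 to 0.621. Rps15a, of the small subunit, was the other member lower in MD, at 4.09 ± 0.2 CPM against 8.6 ± 0.223 CPM (-0.92 ± 0.32, adjusted p = 0.0285). Of these 2 lower calls, 0 were left without MD09 or MD30 and 1 without A04, A10, MD09 replicate 1 or MD30 replicate 2 at 90 min.

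At 90 min the MD libraries differed by replicate number and by clone. Rpl36 held 65.2 and 61.9 CPM in replicate 1 of MD09 and MD30, and 103 and 109 CPM in replicate 2. Rpl26 held 82.3 and 79.4 CPM in replicate 1 and 47.8 and 58.2 CPM in replicate 2. Counts summed per clone do not carry this spread, so the SD and p-values at 90 min do not measure it. The share of counts on members was 0.228% in MD09 and 0.295% in MD30. Without MD09 the count of members higher was 13, without MD09 replicate 1 at 90 min 23, and with library totals 22, and without mitochondrially encoded features and CT010467.2 it was 35. Rpl19, Rpl26, Rpl27a, Rpl36, Rpl38, Rpl4 and Rps26 were among the 8 members that kept their call in all alternatives run. Stem cell markers summed to 383 to 571 CPM in MD and 828 to 976 CPM in R42A at 90 min. Of the 7 tested, Esrrb was lower in MD (-1.19 ± 0.18, adjusted p = 3.28e-06), Nanog higher (0.64 ± 0.23, adjusted p = 0.0273), and the median was -0.33. The part of these markers in the member result was not tested.

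**Figure D2:**
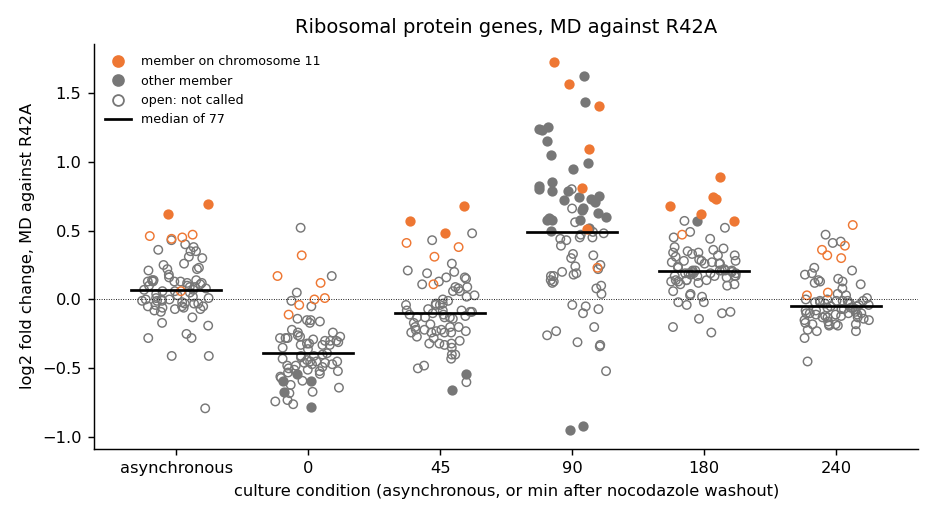
Log2 fold change of MD against R42A for the 77 members in each condition, with 1 point per member, filled where called and orange on chromosome 11, and lines at the median. At 90 min most points lie above 0, with a median of 0.49, and at 0 min most lie below 0, with a median of -0.39.

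Gene structure went with the size of the difference at 90 min. Across the 77 members, which are not independent replicates, Spearman's rho of the log2 fold with exon length was -0.40 and with gene length -0.32. The 39 members with shorter exons had a median of 0.66, with 22 called higher, and the 38 with longer exons a median of 0.36, with 13 called higher. The shorter group held Rpl19, Rpl23, Rpl23a, Rpl26, Rpl27 and Rpl38 of chromosome 11, and the longer group Rps27a. The median of these 7 was 1.09, and exon length was not separated from chromosome. Exon length was not set against the fold over all features. Of the 24 members with CCGGAAG in the promoter window 12 were called higher (median 0.57), and of the 32 without it 15 (median 0.47). The median was also higher with CACGTG than without it (0.58 and 0.49), and lower with CTTTCC (0.48 and 0.58), AAGATGG (0.43 and 0.56), TATAAA (0.43 and 0.56) and TCGCGAGA (0.45 and 0.52). None of these differences was tested.

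At the other conditions fewer members differed between genotypes. In asynchronous cells 2 were higher in MD and 0 lower, against 5.18% and 7.95% of all features. They were Rpl38 (0.62 ± 0.17, adjusted p = 0.0134) and Rpl27 (0.69 ± 0.22, adjusted p = 0.0299), and Rpl38 held 38.3, 45, 33.2 and 35.5 CPM in the MD libraries and 17.1, 28.3, 21.9 and 24.4 CPM in those of R42A, without overlap. Neither kept its call in all alternatives. The count was 0 without A04 replicate 1, clone A10 or clone MD09, and 1 without clone A04 or MD30, A10 replicate 1, MD09 replicate 1 or MD30 replicate 2.

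At washout the difference went the other way. No member was higher in MD and 5 were lower, against 3.71% and 2.95% of all features, while 69 of 77 had a log2 fold below 0 and the median was -0.39 (all features 0.00). At an unadjusted p under 0.05, 33 members were lower and 0 higher, where 19.6% of all features passed in either direction. Rpl8, of the peptidyl transferase region, was at 113 ± 16.6 CPM in the MD clones, against 162 ± 30.1 CPM in R42A (-0.59 ± 0.17, adjusted p = 0.0303). Rpl35, at the tunnel exit (-0.78 ± 0.23, adjusted p = 0.0339), Rps4l (-0.67 ± 0.19, adjusted p = 0.0281) and Rpl32 (-0.59 ± 0.19, adjusted p = 0.0499) were also called. The calls were all lost with library totals, without any of the clones A10, MD09 and MD30, and without A04 replicate 2, A10 replicate 1 or MD30 replicate 2 at 0 min, and 2 were left without A04.

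At 45 min 3 members were higher and 2 lower in MD, against 10.3% and 7.33% of all features. Rpl27 (0.68 ± 0.20, adjusted p = 0.0185), Rpl23a (0.57 ± 0.18, adjusted p = 0.0267) and Rpl38 (0.48 ± 0.17, adjusted p = 0.0462) were higher, and Rpl7l1 (-0.54 ± 0.18, adjusted p = 0.0285) and Rplp1 (-0.66 ± 0.22, adjusted p = 0.0379) lower. The 3 higher calls were lost without any single clone and without A04 replicate 2 at 45 min, and the lower count was 0 without MD09, MD30, A10 replicate 1, MD09 replicate 2 or MD30 replicate 1, 1 without A10, 4 without MD09 replicate 1, 5 without MD30 replicate 2 and 9 without A04 replicate 2 at 45 min. With library totals it was 0, and the median of -0.10 became 0.01.

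At 180 min 7 members were higher in MD and 0 lower, against 6.55% and 7.46% of all features. The median was 0.21 (all features -0.02), and 69 members lay above 0. Rpl38 held 32.2, 29.4, 39.2 and 34.5 CPM in MD and 10.6, 20.4, 20.2 and 18.3 CPM in R42A, with no overlap (0.89 ± 0.17, adjusted p = 0.000432). Rpl27 (0.74 ± 0.20), Rpl26 (0.73 ± 0.18), Rpl23 (0.68 ± 0.17), Rpl23a (0.62 ± 0.19), Rpl10a (0.57 ± 0.18) and Rpl19 (0.57 ± 0.18) were the others, with adjusted p of 0.00539 to 0.035. The count was 1 without A04, 2 without MD30 and 3 without MD09. At 240 min edgeR called 0 members higher and 0 lower, against 6.13% and 4.43% of all features, and DESeq2 called 0 and 0. By edgeR 2 were higher and 1 lower at an unadjusted p under 0.05, where 23.1% of all features passed in either direction.

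Members called higher in MD outside 90 min lay largely on 1 chromosome. Chromosome 11 holds Rpl19, Rpl23, Rpl23a, Rpl26, Rpl27, Rpl38 and Rps27a, and it carried all members called higher in asynchronous cells and at 45 min, 6 of 7 at 180 min and 6 of 35 at 90 min. Of all features tested on chromosome 11, 19.2% were called higher in asynchronous cells, 32.1% at 45 min, 29.2% at 90 min and 31.4% at 180 min. None of the members called lower in MD at 0 min (5) and 45 min (2) lies on chromosome 11, where 0.686% and 0.8% of all features were called lower. The features of chromosome 11 as a whole were also higher in MD, with a median log2 fold of 0.42 in asynchronous cells and between 0.29 and 0.51 at the other times. Those of chromosome 8 were lower, with medians between -0.49 and -0.37. All other chromosomes together had medians between -0.16 and 0. Between clones, the median deviation of chromosome 11 features in asynchronous cells was -0.22 in A04 and A10, 0.23 in MD09 and 0.21 in MD30. DNA was not measured, and the cause was not tested.

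**Figure D3:**
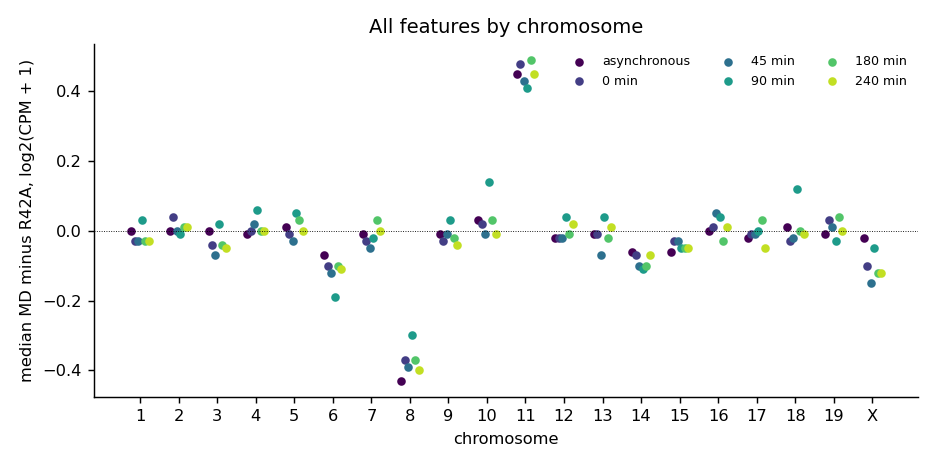
Median over the features of each chromosome of the difference between MD and R42A in log2(CPM + 1), with colour for condition. Chromosome 11 lies above and chromosome 8 below all other chromosomes in every condition.

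The median of the members outside these chromosomes had the same sign as that of all members in each condition. The 69 members on neither chromosome had median log2 folds of MD against R42A of 0.06 in asynchronous cells, -0.42 at 0 min, -0.12 at 45 min, 0.45 at 90 min, 0.20 at 180 min and -0.06 at 240 min. At 90 min 29 of them were called higher and 2 lower, against 14.8% and 22.5% of all features on neither chromosome. The 7 members of chromosome 11 had medians of 0.46, 0.01, 0.41, 1.09, 0.68 and 0.32 in the same order.

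In R42A 5 members rose and 2 fell from 90 to 180 min, against 20.7% and 17.3% of all features. Rpl31 (1.18 ± 0.18), Rps28 (0.96 ± 0.15), Rpl7l1 (0.52 ± 0.18) and Rps14 (0.44 ± 0.14) were among those that rose, with adjusted p of 8.57e-07 to 0.0186. Rpl5, which binds 5S rRNA (-0.56 ± 0.17, adjusted p = 0.00906), and Rpl30 (-0.55 ± 0.22, adjusted p = 0.045) fell. The higher count was 2 without A10, 3 without A04 or A04 replicate 2 at 180 min, 8 without A04 replicate 1 at 90 min and 9 without A04 replicate 1 at 180 min, and the lower count 0 to 4. Rpl31 and Rps28 kept their call in all alternatives run. The step from 180 to 240 min was not tested. Over it the R42A share of counts on members without Rps28 and Rps14 was 0.114 to 0.179% at 180 min and 0.213 to 0.249% at 240 min, with no overlap, and Rps15 and Rpl8 went from 33.7 ± 6.78 and 48.6 ± 8.78 CPM to 56.4 ± 3.19 and 75.9 ± 3.67 CPM (chosen after their values were seen).

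In MD 19 members fell and 5 rose from 90 to 180 min, against 18.6% and 26.7% of all features. Among those that fell most were Rpl27a (-1.41 ± 0.17), Rps26 (-1.18 ± 0.16), Rpl36a (-1.14 ± 0.26), Rps7 (-1.12 ± 0.23) and Rpl26 (-1.06 ± 0.18), with adjusted p of 5.18e-09 to 0.000443, and all of these but Rpl36a had risen from 45 to 90 min. Rpl7l1 (1.23 ± 0.26), Rps28 (1.04 ± 0.16), Rpl31 (0.96 ± 0.21), Rpl6 (0.74 ± 0.27) and Rps14 (0.63 ± 0.15) rose, with adjusted p of 5.19e-07 to 0.0205. The median of -0.20 became 0.06 with library totals, which gave 10 higher and 12 lower, and without MD09 3 fell.

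The interaction over this step was negative for 10 members and positive for 0, against 7.7% and 12.3% of all features. At an unadjusted p under 0.05 it was negative for 17 and positive for 2, where 32.9% of all features passed in either direction. Rpl27a (-1.40 ± 0.24, adjusted p = 6.34e-05), Rps26 (-0.97 ± 0.23, adjusted p = 0.00213) and Rpl36 (-0.91 ± 0.24, adjusted p = 0.00561) were among the 10 called. With library totals the counts were 5 negative and 1 positive. The negative count was 1 without MD09, 4 without A10, 4 without MD09 replicate 1 at 90 min, 5 without A04 replicate 2 at 90 min and 6 without A04 replicate 2 at 180 min. Rpl27a kept its call in all alternatives run.

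At 240 min few members differed from asynchronous cells. In R42A 2 were higher and 9 lower than in asynchronous cells, against 19.3% and 26.1% of all features, with a member median of -0.16. With library totals the median was 0.16 and the counts 4 and 0, and the lower count was 2 without A04 or A10, 4 without MD30 and 2 to 5 without 1 of 4 single libraries. Rps28 and Rpl31 were higher, and Rpl5 (-0.74 ± 0.18, adjusted p = 0.000506) and Rpl28 (-0.72 ± 0.16, adjusted p = 0.000243) were among those lower. In MD 2 were higher and 9 lower, against 20% and 23.5% of all features. Rpl5 (-0.91 ± 0.18, adjusted p = 4.04e-05), Rps6, the target of S6 kinase (-0.78 ± 0.23, adjusted p = 0.00398), and Rpl10a, of the L1 stalk (-0.66 ± 0.18, adjusted p = 0.00272), were among those lower. The lower count was 1 with library totals, 4 without A04, 2 without MD09, 3 without MD30, and 5 and 14 without MD09 replicate 1 and replicate 2 at 240 min.

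Rps28 (chr17:33819027-33824562) and Rpl31 (chr1:39367842-39371911) peaked late in both genotypes. Rps28 held 185, 276, 213 and 246 CPM in the asynchronous R42A libraries, 233, 228, 212 and 262 CPM at 90 min, 446, 437, 489 and 549 CPM at 180 min and 608, 528, 642 and 654 CPM at 240 min. All libraries at 180 and 240 min were above all earlier ones (1.09 ± 0.15, adjusted p = 7.45e-08 for 240 min against asynchronous cells). In MD the same comparison gave 0.95 ± 0.15, adjusted p = 1.33e-06. Rpl31 held 14.7, 16.2, 15.8 and 15.7 CPM at 90 min and 61.5, 39.3, 52.3 and 56.8 CPM at 240 min in R42A, without overlap, and differed from asynchronous cells by 0.77 ± 0.18, adjusted p = 0.000327 in R42A and 1.10 ± 0.18, adjusted p = 3.17e-06 in MD. Kank3, on the other strand of Rps28, was at 324 CPM at 90 min and 305 CPM at 240 min in R42A, and Tbc1d8, on the other strand of Rpl31, at 332 and 239 CPM. In MD the same 2 times gave 111 and 285 CPM for Kank3 and 232 and 252 CPM for Tbc1d8. By these means both were lower at 240 than at 90 min in R42A and higher in MD, and their part in the late peak was not tested.

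Rps10 and Rpl7l1 peaked at 45 min. Rps10 (chr17:27630418-27636669), of the small-subunit head, held 7.87, 1.12, 8.48 and 6.45 CPM at 0 min, 16.9, 14.8, 25 and 18.3 CPM at 45 min and 2.64, 2.86, 4.71 and 1.83 CPM at 90 min in R42A. Its 45 min libraries were above all others in R42A (1.73 ± 0.31, adjusted p = 1.44e-05 for the rise, -2.43 ± 0.26, adjusted p = 1.78e-10 for the fall), and MD gave 1.83 ± 0.29, adjusted p = 1.73e-06 and -2.53 ± 0.34, adjusted p = 4.11e-08. Rps10 has few counts and shares exons with a read-through transcript and with Gm15420 on the other strand. Rpl7l1 held 24.9, 14.5, 24.2 and 32.2 CPM at 0 min and 40.3, 38.1, 48.1 and 33 CPM at 45 min in R42A, with no overlap, and rose by 0.81 ± 0.21 in R42A and 0.82 ± 0.22 in MD, with adjusted p of 0.00121 and 0.00283.

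**Figure D4:**
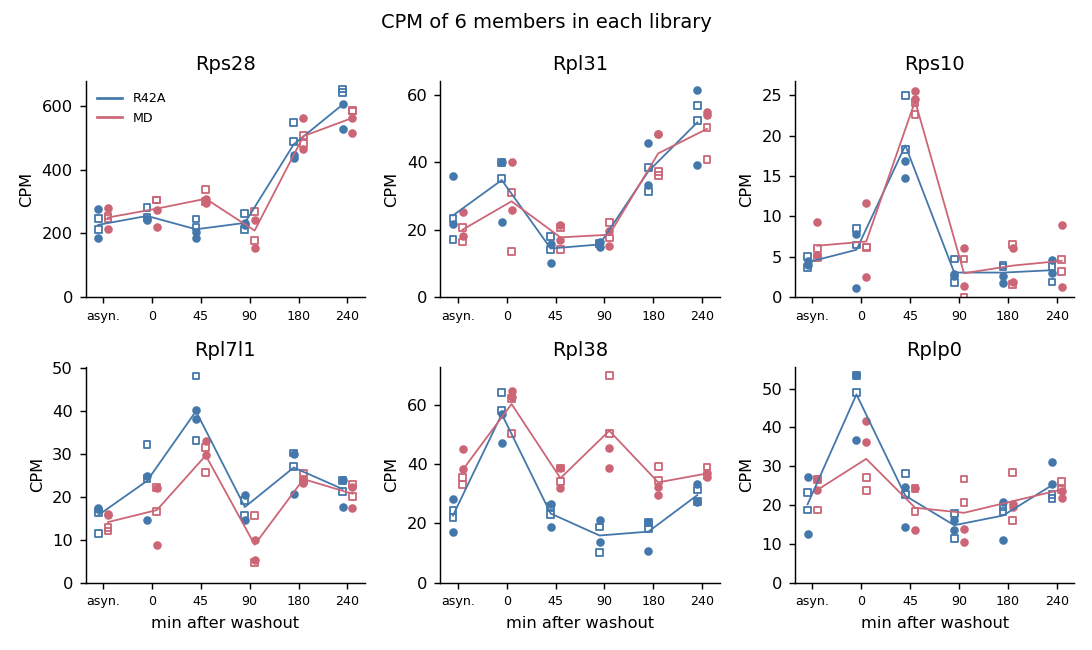
CPM of 6 members in each library against condition, with colour for genotype, filled or open symbols for the 2 clones of each and lines through the group means. Rps28 and Rpl31 are highest at 240 min, Rps10 and Rpl7l1 at 45 min, and Rpl38 and Rplp0 at 0 min.

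Most members moved together over the series. Over 24 sums of clone and condition, which share libraries and clones, the correlation of a member with the mean of the others had a median of 0.86, and it was 0.8 or more for 55 members. It was under 0.3 for 5 members, Rpl18, Rpl31, Rpl7l1, Rps14 and Rps28. Another 12374 features were compared with the summed CPM of the members, of whose counts Rps28 and Rps14 held 23.8% over the series. Most like this sum were Eef1a1, the translation elongation factor (r = 0.94), Peg10, an imprinted gene (0.93), and Fau, whose product includes the small-subunit protein eS30 (0.93). Polr2e, a shared RNA polymerase subunit (0.92), and Tmsb10, a thymosin (0.92), followed.

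**Figure D5:**
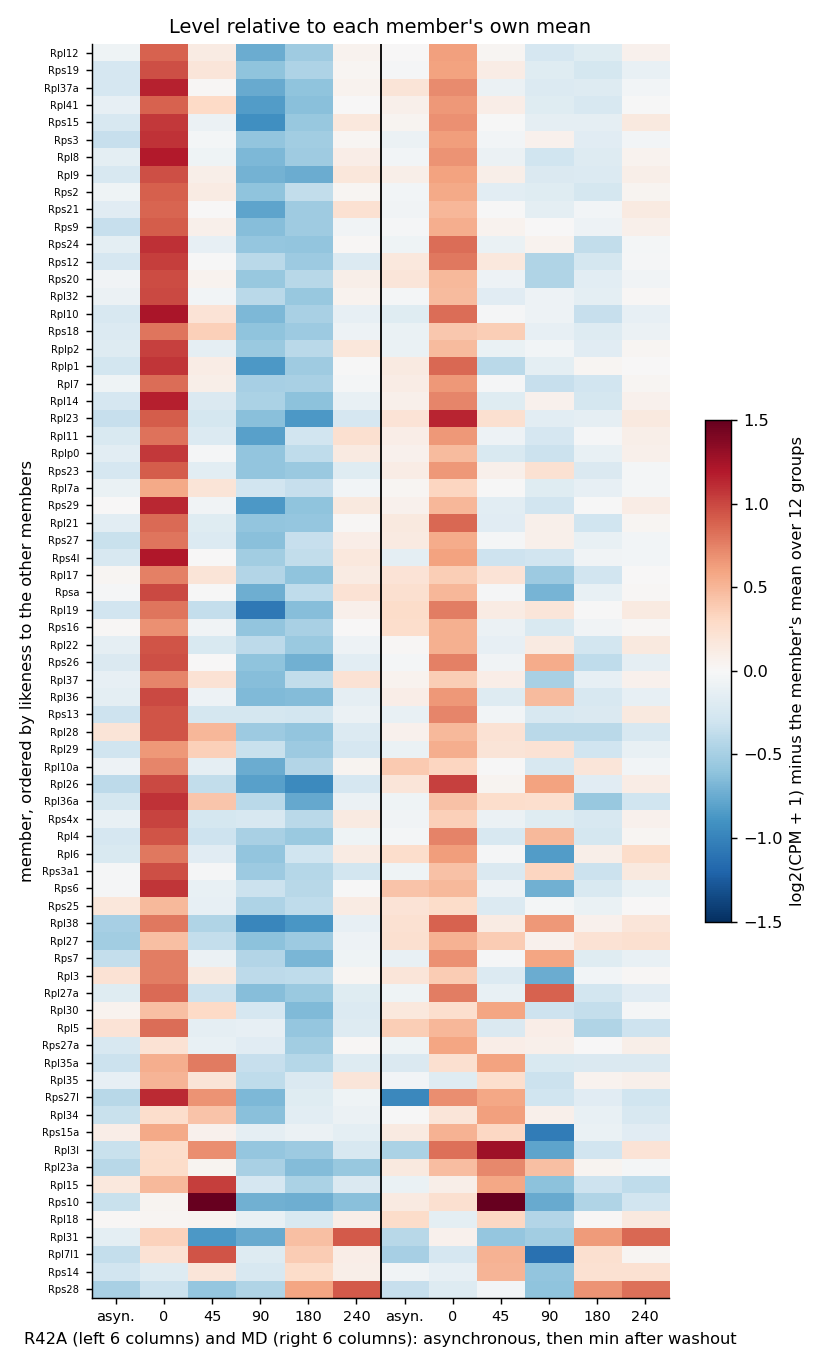
Log2(CPM + 1) of the members, 5 of the 77 not shown, in each group minus that member's mean over the 12 groups (colour, cut off at 1.5 in either direction), for R42A in the left and MD in the right 6 columns, with members ordered from most to least like the rest. Most members are highest at 0 min, and Rps28, Rps14, Rpl7l1 and Rpl31 at the bottom follow other courses.

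Other genes of the translation machinery were set beside the members. Of 19 translation factors and other genes known for 5′ TOP messenger RNAs, 12 rose and 0 fell at washout in R42A (median 0.65, against 19.1% and 27.2% of all features), and 13 fell by 45 min. In MD 1 rose and 0 fell at washout (median 0.18, against 18% and 24.6%), and 9 fell by 45 min. At 90 min 4 were higher and 1 lower in MD than in R42A (median 0.09), where 15.6% and 22.1% of all features were called, shares that also bear on the lists that follow. Fau (1.00 ± 0.20, adjusted p = 0.000171), Eef1d, an exchange factor for Eef1a1 (1.03 ± 0.17, adjusted p = 1.58e-05), and Eef1a1 itself (0.54 ± 0.17, adjusted p = 0.0102) were higher. Of 18 assembly factors and chaperones, 2 were higher and 3 lower at 90 min, Pno1 higher (0.99 ± 0.21, adjusted p = 0.000421) and Nob1, its partner in late small-subunit assembly, lower (-1.10 ± 0.30, adjusted p = 0.00388). The 55 genes for mitochondrial ribosomal proteins had a median of -0.30, with 6 called higher in MD and 16 lower. Among 16 mitochondrially encoded features 10 were called higher and 2 lower.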

How the data were processed

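Nascent RNA-seq of mouse embryonic stem cells was analysed in 48 libraries. The deposited values are raw counts per gene feature made by the authors, with 55291 features and 5 summary lines of the counter. The line for reads on no feature held 90.2 to 94% of each table (median 91.4%) and stayed out of totals and tests. Per the submitters' processing notes, Trim Galore 0.60, STAR 2.7.1a and RSEM 1.3.0 were used with mm10, and the counter's settings, strand included, are not given in the sources used here. Libraries held 630119 to 3885219 counts, so low members such as Rps10 rest on few counts.

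Groups came from the sample titles. Both libraries of a clone and condition were summed to 24 sums, and edgeR 4.0.16 (R 4.3.3, limma 3.58.1) was run with TMM scaling, robust quasi-likelihood fits and filterByExpr (minimum count 10, total 15), which kept 23874 features. The 6 genotype comparisons, 10 time comparisons (with a clone term) and 2 interactions were each adjusted by the Benjamini-Hochberg method at 0.05 over all features. The common biological coefficient of variation was 0.127 in the genotype fit and 0.111 in the time fit. Named genes are up to 6 called members with the largest log2 fold in each direction whose clones lay apart (up to 12 higher at 90 min), with the stalk genes, Rpsa, Rps27a, Rpl41 and the paralogs at 90 min. Alternatives were DESeq2 1.42.0, its size factors, library totals, no filter, single libraries with and without a replicate block, and fits without a library, a clone, the 90 min libraries, chromosomes 8 and 11, or mitochondrially encoded features with CT010467.2. Across 24 pairs of an R42A and an MD clone the correlation of the differences between replicates 1 and 2 was -0.15 to 0.12 (median -0.04). By this check the numbers do not pair libraries across genotypes. Clones of the same genotype were not compared in this way. In MD at 90 min the level went with the replicate number in both clones for some members, such as Rpl36 and Rpl26. Some members are not reported by name here but are part of all counts and medians. The test script was run on simulated counts with known changes and no clone or replicate effect. Of 2-fold changes it recovered 32% (genotypes at 90 min), 38% (MD 90 min against 45 min) and 12% (interaction 90 min against 45 min). Of 4-fold changes it recovered 82, 83 and 66% in the same order. False calls were 6.56, 3.2 and 8.24% of all calls. Gene positions came from GENCODE M21, and promoters from RefSeq. The members and lists were chosen with earlier results of these data known.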

Additional observations from a re-analysis of the deposited data

Results flagged for a closer look

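Of 180 groups of 4 libraries examined, 9 had a library far from the rest by Dixon's criterion at a threshold of 1 in 20. The groups are not independent, as they share libraries and the summed members include the single members examined. In R42A at 180 min, clone A04 replicate 1 was low for the summed members, at 1920 CPM where the others held 2560 to 2590 CPM. The same library was low for Rplp2 at 10.8 CPM (others 20.2 to 21 CPM) and for Rpl27a at 14.7 CPM (others 22.3 to 23.7 CPM). Its share of counts on members without Rps28 and Rps14 was 0.114% (others 0.17 to 0.179%), and it is part of the comparisons at 180 min. Rpl38 was low in MD30 replicate 2 at 0 min, at 50.3 CPM (others 62.1 to 64.6 CPM). Rpl27 was high in A04 replicate 2 of asynchronous cells at 14.4 CPM (others 8.96 to 9.58 CPM) and in A10 replicate 1 at 0 min at 26.7 CPM (others 19.3 to 20.1 CPM), and low in MD30 replicate 1 at 45 min at 18 CPM (others 21.2 to 21.6 CPM). Rpl26 was low in A04 replicate 2 at 45 min at 28.4 CPM (others 35.4 to 36 CPM), and Rpl7l1 in A10 replicate 2 of asynchronous cells at 11.4 CPM (others 16.4 to 17.4 CPM).

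The change from 45 to 90 min differed between the genotypes by the interaction test for 26 members, all more positive in MD. The differences by edgeR included 1.51 ± 0.24 for Rpl27a (adjusted p = 2.46e-05), 1.47 ± 0.24 for Rpl36 (2.75e-05), 1.40 ± 0.22 for Rps26 (2.6e-05) and 1.34 ± 0.33 for Rps3a1 (0.00384). From 90 to 180 min it differed for 10 members, all more negative in MD. These differences included -1.40 ± 0.24 for Rpl27a (6.34e-05), -0.97 ± 0.23 for Rps26 (0.00213), -0.96 ± 0.33 for Rps3a1 (0.0359) and -0.91 ± 0.24 for Rpl36 (0.00561). Both tests share the 90 min libraries. At that time, mitochondrially encoded features took up to 4.31% of counts in MD09 and up to 0.567% in MD30.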

How the results depend on the processing

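Each count of members called was recomputed under the alternatives, which gave 758 values, and 560 of them stayed within 1.5 times of the reported count. For single called members 6499 of 7726 values kept their direction and side of the threshold, 1220 lost the call and 7 changed sign. The fits without chromosomes 8 and 11, without the MD 90 min libraries of replicate 1 and without MD09 at 90 min alone were chosen after seeing the data. Counts are given below as members higher or lower in MD than in R42A, or at the later than at the earlier time. DESeq2, its size factors within edgeR, library totals, single libraries and the fits without the MD 90 min libraries or chromosomes 8 and 11 are changes of method or samples, and the cause of a moved count was not tested beyond that. The fits without mitochondrially encoded features and CT010467.2, and the 240 min counts under DESeq2, moved no count beyond 1.5 times.

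With the 48 libraries fitted singly the counts were 6 higher (genotypes in asynchronous cells), 3 lower (genotypes at 0 min), 1 lower (genotypes at 90 min) and 1 higher (genotypes at 240 min). With a replicate block on the single libraries the counts were 6 higher (genotypes in asynchronous cells), 3 lower (genotypes at 0 min), 1 lower (genotypes at 90 min) and 1 higher (genotypes at 240 min). In the time comparisons, with single libraries, a clone term and a replicate block, the counts were 0 lower (R42A 0 min against asynchronous), 1 lower (R42A 180 min against 90 min), 2 lower (R42A 240 min against asynchronous), 28 higher and 1 lower (MD 0 min against asynchronous) and 4 lower (MD 240 min against asynchronous). With DESeq2 the counts were 1 higher (genotypes in asynchronous cells), 2 lower (genotypes at 0 min), 0 higher and 1 lower (genotypes at 45 min), 1 lower (genotypes at 90 min), 0 lower (R42A 0 min against asynchronous) and 3 higher and 1 lower (R42A 180 min against 90 min). The same setting gave 2 lower (R42A 240 min against asynchronous), 1 lower (MD 0 min against asynchronous), 4 lower (MD 90 min against 45 min) and 4 lower (MD 240 min against asynchronous). With DESeq2's size factors in edgeR the counts were 3 lower (genotypes at 0 min), 5 lower (genotypes at 45 min) and 1 lower (genotypes at 90 min). Without the replicate 1 libraries of MD at 90 min the counts were 20 higher and 4 lower (genotypes at 90 min), 10 higher (MD 90 min against 45 min), 8 higher (MD 180 min against 90 min), 1 lower (interaction 90 min against 45 min) and 2 higher and 5 lower (interaction 180 min against 90 min). Without chromosomes 8 and 11 the counts were 0 higher (genotypes in asynchronous cells), 3 lower (genotypes at 0 min), 0 higher and 1 lower (genotypes at 45 min) and 1 higher (genotypes at 180 min). Without MD09 at 90 min alone the counts were 13 higher and 1 lower (genotypes at 90 min), 7 higher (MD 90 min against 45 min), 8 lower (MD 180 min against 90 min), 9 higher and 2 lower (interaction 90 min against 45 min) and 2 lower (interaction 180 min against 90 min). With library totals in place of TMM the counts were 5 higher (genotypes in asynchronous cells), 0 lower (genotypes at 0 min), 0 lower (genotypes at 45 min), 22 higher (genotypes at 90 min), 0 lower (R42A 0 min against asynchronous) and 1 lower (R42A 180 min against 90 min). The same setting gave 4 higher and 0 lower (R42A 240 min against asynchronous), 38 higher and 1 lower (MD 0 min against asynchronous), 8 higher and 20 lower (MD 90 min against 45 min), 10 higher and 12 lower (MD 180 min against 90 min), 1 lower (MD 240 min against asynchronous) and 13 higher and 4 lower (interaction 90 min against 45 min). The same setting gave 1 higher and 5 lower (interaction 180 min against 90 min). Without the clone term the counts were 0 lower (R42A 0 min against asynchronous) and 1 lower (R42A 180 min against 90 min). Without the filter on low counts the counts were 2 lower (genotypes at 0 min), 1 higher and 4 lower (genotypes at 45 min), 1 lower (genotypes at 90 min), 0 lower (R42A 0 min against asynchronous), 1 lower (R42A 180 min against 90 min) and 2 lower (R42A 240 min against asynchronous). The same setting gave 1 lower (MD 0 min against asynchronous) and 4 lower (MD 240 min against asynchronous). Without the 90 min libraries the counts were 5 higher (genotypes in asynchronous cells), 3 lower (genotypes at 0 min), 5 lower (genotypes at 45 min) and 1 higher (genotypes at 240 min).

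With a library, a replicate number or a clone left out, the counts ranged over 0 to 3 higher (genotypes in asynchronous cells), 0 to 7 lower (genotypes at 0 min), 0 to 4 higher and 0 to 9 lower (genotypes at 45 min), 13 to 42 higher and 0 to 3 lower (genotypes at 90 min) and 1 to 8 higher (genotypes at 180 min). Such fits also gave 27 to 57 higher and 0 to 2 lower (R42A 0 min against asynchronous), 1 to 4 higher (R42A 45 min against 0 min), 0 to 1 higher and 16 to 48 lower (R42A 90 min against 45 min), 2 to 9 higher and 0 to 4 lower (R42A 180 min against 90 min) and 1 to 3 higher and 2 to 9 lower (R42A 240 min against asynchronous). Such fits also gave 3 to 26 higher and 1 to 3 lower (MD 0 min against asynchronous), 2 to 6 higher and 12 to 51 lower (MD 45 min against 0 min), 5 to 22 higher and 5 to 10 lower (MD 90 min against 45 min), 3 to 24 lower (MD 180 min against 90 min) and 2 to 14 lower (MD 240 min against asynchronous). Such fits also gave 5 to 43 higher and 0 to 2 lower (interaction 90 min against 45 min) and 1 to 13 lower (interaction 180 min against 90 min). Among single members, the log2 fold of MD against R42A at 90 min turned to -0.03 for Rpl10a and -0.16 for Rpl34 without replicate 2 (1.21 and 1.68 without replicate 1), and to -0.21 for Rpl37a and -0.38 for Rps29 without the replicate 1 libraries of MD at 90 min. The latter also turned the MD change from 45 to 90 min to 0.09 for Rpl30 and -0.14 for Rpl32, and library totals turned that of Rpl18 in R42A at washout to 0.03.

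The replicate numbers do not pair libraries across genotypes by the check above, and the block changed no count beyond those given here. Depth limits the members with few counts, of which Rps10 had 726 over 48 libraries.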
